A study of Rattus norvegicus with 12 samples.

Results

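The 10 genes described here, *Pax7*, *Myf5*, *Myod1*, *Myog*, *Myf6*, *Mymk*, *Chrna1*, *Ncam1*, *Megf10*, and *Actc1*, are active in skeletal muscle that is being rebuilt or has lost its nerve. Some are also made by resting satellite cells, mature fibers, or cells outside muscle. The 10 genes were chosen by symbol. All 10 were found among the 25620 genes of the count table and in the table of FPKM (fragments scaled by gene length and library total). RNA sequencing was performed on wound tissue, labeled skin, of male SD rats made diabetic with streptozotocin and given a circular full-thickness punch wound on the back. The wounds received saline (control), the dried mucus gel of the snail *Achatina fulica* (d-SMG), the glycosaminoglycan prepared from this mucus (s-GAG, labeled GAG), or a commercial alginate dressing (Alg), and tissue was taken on day 3, 7, and 14. The 12 libraries hold 1 library for each treatment and day, and it is not stated whether a library came from 1 animal or from several. Every animal, control included, was diabetic and wounded, and unwounded skin or muscle was not analysed here.

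Satellite cells, the stem cells of muscle, lie quiet on each fiber and carry the transcription factor *Pax7*. After injury they divide and switch on *Myf5* and *Myod1*, which commit them to muscle, and then *Myog* and *Myf6*, which drive the terminal program. Fusion into new fibers needs the membrane protein myomaker, encoded by *Mymk*. A fiber that is young, or that has lost contact with its nerve, makes acetylcholine receptor and neural cell adhesion molecule along its whole length, and cardiac actin is the form that immature skeletal fibers make. In the rat a thin sheet of muscle, the panniculus carnosus, lies under the dermis, so that a full-thickness wound of the back can cut it.

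The promoters of 4 of the genes are shown because *Myog* and *Myf6* had the most similar patterns of any pair below, *Chrna1* was nearest in pattern to the receptor subunits *Chrnd* and *Chrng*, and *Actc1* had the highest ratio of highest to lowest CPM. The sequences are from RefSeq (GRCr8), run 5′ to 3′ on the strand of the gene, and cover 250 bases before and 50 bases after the annotated start. A promoter was found for 6 of the 10 genes, and *Myod1*, *Mymk*, *Ncam1*, and *Megf10* had none in the table. Capitals mark matches on either strand to the E-box CANNTG, to the core of the MEF2 site (TA, 4 letters that are A or T, TA), and to the CArG box of serum response factor.
Myog, chr13:48297226-48297525, plus strand: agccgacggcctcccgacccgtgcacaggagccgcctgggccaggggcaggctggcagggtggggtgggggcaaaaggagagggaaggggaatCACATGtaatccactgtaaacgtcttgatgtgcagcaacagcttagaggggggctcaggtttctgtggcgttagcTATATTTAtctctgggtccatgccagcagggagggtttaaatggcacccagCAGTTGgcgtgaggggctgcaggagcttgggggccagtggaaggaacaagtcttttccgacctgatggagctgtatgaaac
Myf6, chr7:44701264-44701563, minus strand: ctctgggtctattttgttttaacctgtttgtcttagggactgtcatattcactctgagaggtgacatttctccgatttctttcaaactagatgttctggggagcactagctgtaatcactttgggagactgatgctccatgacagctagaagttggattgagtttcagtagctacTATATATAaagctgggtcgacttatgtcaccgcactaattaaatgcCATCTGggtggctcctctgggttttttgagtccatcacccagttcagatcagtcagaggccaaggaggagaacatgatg
Chrna1, chr3:78877304-78877603, minus strand: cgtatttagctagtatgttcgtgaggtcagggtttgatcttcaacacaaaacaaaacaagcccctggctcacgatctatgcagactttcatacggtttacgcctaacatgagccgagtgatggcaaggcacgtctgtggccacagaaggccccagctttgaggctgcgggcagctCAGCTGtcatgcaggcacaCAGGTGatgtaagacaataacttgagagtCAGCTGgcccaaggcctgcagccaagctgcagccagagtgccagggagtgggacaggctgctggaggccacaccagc
Actc1, chr3:121271778-121272077, minus strand: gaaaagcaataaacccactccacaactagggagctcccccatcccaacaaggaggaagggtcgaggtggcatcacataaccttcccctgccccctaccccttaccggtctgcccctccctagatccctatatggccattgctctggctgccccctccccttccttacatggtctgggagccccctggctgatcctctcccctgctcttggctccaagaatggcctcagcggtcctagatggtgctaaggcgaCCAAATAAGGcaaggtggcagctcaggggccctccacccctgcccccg
The *Myog* window holds 2 E-boxes and 1 MEF2 core between them. The *Myf6* window holds 1 E-box and 1 MEF2 core whose letters can also be read as a TATA box. In the *Chrna1* window 3 E-boxes lie close together, 2 of the form CAGCTG and, in the middle, 1 that reads CACCTG on the opposite strand. CAGCTG and CACCTG are the forms that MyoD and myogenin are known to bind, and both are also counted as CANNTG. The *Actc1* window holds 1 CArG box and no CANNTG. The *Pax7* and *Myf5* windows hold none of these motifs. Of 33469 promoter windows of the same length, 72.1% hold CANNTG, 15.1% hold CAGCTG, 18.8% hold CACCTG, and 1.64% hold the CArG box, and 3350 windows hold the MEF2 core. A match describes letters in the window and not binding.

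The libraries held 13748887 to 38302461 reads on genes. Levels are given as CPM, the reads of a gene per 1000000 reads of the library, scaled by the trimmed mean of M-values (TMM), whose factors ran from 0.715 to 1.21. The share of reads on mature muscle genes differed widely between libraries. Reads on 23 genes of the mature fast fiber made up 9.60%, 7.43%, and 8.14% of the control libraries on day 3, 7, and 14, respectively, 21.1%, 0.864%, and 1.14% of the d-SMG libraries, 5.86%, 5.86%, and 11.3% of the s-GAG libraries, and 5.70%, 16.7%, and 1.58% of the Alg libraries. The labeled tissue is skin, and the summed level of 6 keratinocyte markers was 48.3 CPM in the d-SMG library of day 3, against 3614 to 28546 CPM in the other 11 libraries. The part of the epidermis and of the muscle in the results below was not tested, and fewer cells of a type cannot be told apart from less RNA per cell in such bulk samples.

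The levels of the 10 genes spanned a wide range. Per gene length, the median FPKM over the 12 libraries was highest for *Actc1* (64.3), *Myf6* (45.8), and *Myog* (18.2), intermediate for *Ncam1* (6.43), *Chrna1* (3.83), *Myod1* (2.16), and *Mymk* (1.67), and lowest for *Myf5* (0.335), *Megf10* (0.240), and *Pax7* (0.145). The ratio of the highest to the lowest CPM was between 13.5 for *Myf6* and 111 for *Actc1*. The highest library was d-SMG on day 3 for 4 genes, control on day 3 for 2, and control on day 14 for 2. The lowest was a treated library of day 14 for 9 genes, and for *Pax7* it was d-SMG on day 7.

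**Figure D1:**
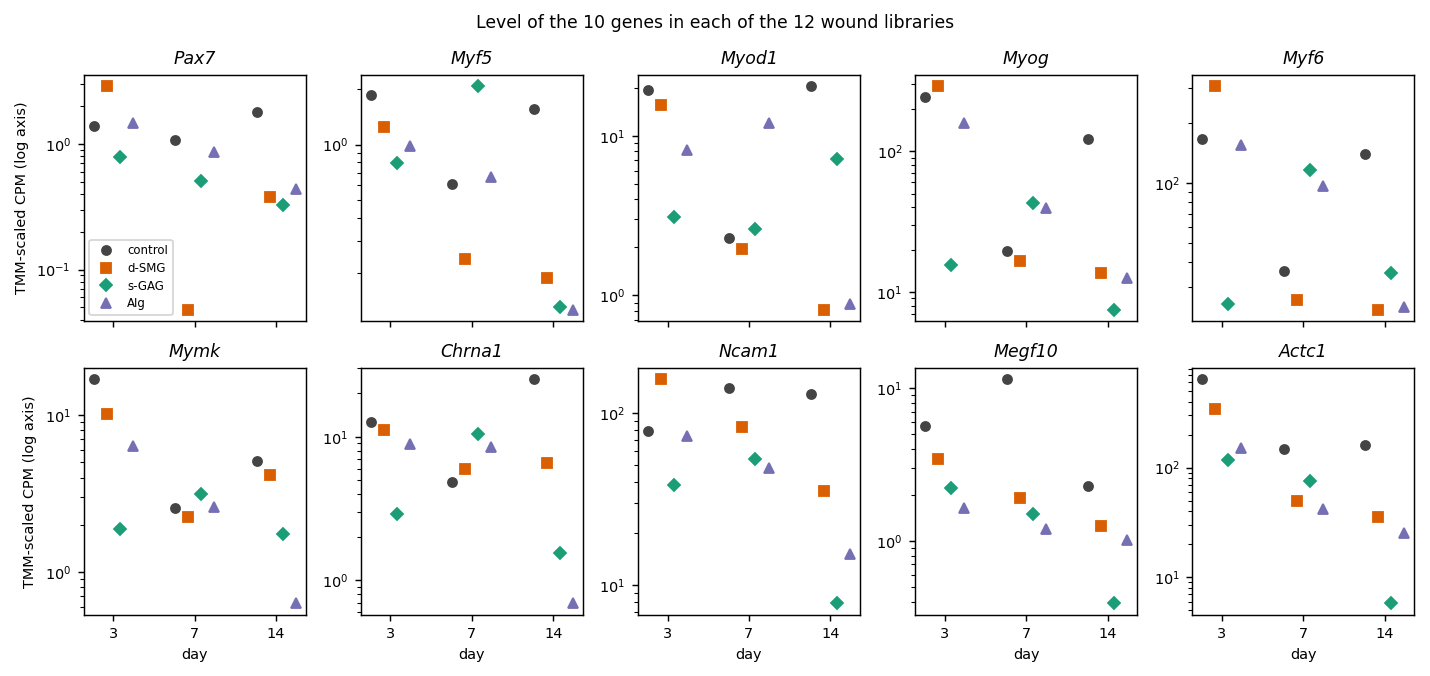
TMM-scaled CPM (log axis) of each gene in the 12 libraries, by day and treatment, 1 point per library. On day 14 the control point is the highest in all 10 panels, and on day 3 the s-GAG point is the lowest in 9.

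*Pax7*, the satellite cell factor, was counted with few reads in every library. On day 3 it stood at 1.40 CPM in control, 2.91 in d-SMG, 0.794 in s-GAG, and 1.48 in Alg. On day 7 the values were 1.08, 0.0478, 0.509, and 0.862 CPM in the same order, and on day 14 they were 1.79, 0.376, 0.325, and 0.441 CPM. These levels rest on 1 to 37 reads, and d-SMG on day 7 is the library with 1 read. On day 14 the 3 treated libraries lay close to each other and below the control.

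*Myf5*, the first of the myogenic factors to be switched on, was also rare. Its level on day 3 was 1.87 CPM in control, 1.25 in d-SMG, 0.794 in s-GAG, and 0.987 in Alg. By day 7 it was 0.610, 0.239, 2.09, and 0.663 CPM, and on day 14 it was 1.55, 0.188, 0.130, and 0.126 CPM. The s-GAG library of day 7 held the most *Myf5*, 82 reads, and the s-GAG and Alg libraries of day 14 the fewest, 2 reads each.

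*Myod1*, which commits cells to muscle, stood at 19.4 CPM in control, 15.5 in d-SMG, 3.12 in s-GAG, and 8.19 in Alg on day 3. On day 7 it was 2.30, 1.96, and 2.62 CPM in control, d-SMG, and s-GAG, and 12 CPM in Alg. On day 14 it was 20.6 CPM in control, 0.814 in d-SMG, 7.14 in s-GAG, and 0.882 in Alg. The control was thus about as high on day 14 as on day 3, with a low value between them, and Alg on day 7 stood alone above the other 3 libraries of its day.

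*Myog*, myogenin, which starts terminal differentiation, ranged 39.1-fold in CPM over the libraries, less than *Pax7* with its few reads (60.9-fold). It stood at 242 CPM in control, 292 in d-SMG, 15.6 in s-GAG, and 159 in Alg on day 3. The level was 19.6, 16.7, 42.7, and 39.4 CPM on day 7, and on day 14 it was 123, 13.7, 7.47, and 12.6 CPM. The 4 libraries above 100 CPM were control, d-SMG, and Alg on day 3 and control on day 14.

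*Myf6*, also called MRF4, acts late in differentiation and stays on in mature fibers. On day 3 its level was 166 CPM in control, 309 in d-SMG, 24.6 in s-GAG, and 155 in Alg. The day 7 values were 36.1, 25.6, 116, and 96.0 CPM, and the day 14 values were 139, 22.9, 35.3, and 23.6 CPM. The order resembled that of *Myog*, except that the s-GAG library of day 14 was not the lowest.

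*Mymk*, which encodes the fusion protein, stood at 17.0 CPM in control, 10.2 in d-SMG, 1.87 in s-GAG, and 6.37 in Alg on day 3. On day 7 all 4 libraries lay between 2.25 and 3.13 CPM. On day 14 the level was 5.14 CPM in control, 4.13 in d-SMG, 1.75 in s-GAG, and 0.630 in Alg. This is the 1 gene for which d-SMG on day 14 was close to the control, with 66 reads against 106.

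*Chrna1* encodes the alpha subunit of the muscle acetylcholine receptor. Its level on day 3 was 12.7 CPM in control, 11.2 in d-SMG, 2.89 in s-GAG, and 8.94 in Alg. The values of day 7 were 4.81, 5.93, 10.5, and 8.42 CPM, with the control lowest. On day 14 it was 25.1 CPM in control, 6.57 in d-SMG, 1.56 in s-GAG, and 0.693 in Alg. The control of day 14 was the highest of the 12 libraries.

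*Ncam1*, the neural cell adhesion molecule of satellite cells and denervated fibers, was 78.3 CPM in control, 157 in d-SMG, 38.4 in s-GAG, and 73.9 in Alg on day 3. On day 7 it was 139, 82.7, 53.8, and 48.1 CPM, and on day 14 it was 129, 35.2, 7.86, and 15.3 CPM. Unlike the myogenic factors it was high in the control on day 7. Schwann cells and NK cells also make *Ncam1*. The summed level of 9 Schwann cell markers was lowest in the control of day 7, at 57.5 CPM, where *Ncam1* was high, and ran up to 216 CPM elsewhere. The 7 NK cell markers summed to 4.66 to 33.1 CPM, and the lowest sum was in d-SMG on day 3, the library with the most *Ncam1*. The Schwann cell sum was 107 CPM in that library, and the NK cell sum was 16.9 CPM in the control of day 7. The part of these cells in the level of *Ncam1* was not tested.

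*Megf10*, a receptor of satellite cells, stood at 5.61 CPM in control, 3.41 in d-SMG, 2.21 in s-GAG, and 1.63 in Alg on day 3. The day 7 levels were 11.4, 1.91, 1.50, and 1.19 CPM, and on day 14 it was 2.28, 1.25, 0.390, and 1.01 CPM. The control was the highest library on each of the 3 days. The s-GAG value of day 14 rests on 6 reads.

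*Actc1*, cardiac actin, stood at 641 CPM in control, 344 in d-SMG, 118 in s-GAG, and 152 in Alg on day 3. On day 7 it was 149, 49.4, 76.3, and 41.8 CPM, and on day 14 it was 160.5, 35.1, 5.78, and 25.3 CPM. The control was again the highest on each day. The coding sequence of *Actc1* is close to that of the skeletal actin gene *Acta1*, and how reads that fit both were counted is not given in the sources used here, so the counts of *Actc1* are uncertain.

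Each treated library was next set against the control library of its day. With 1 library per treatment and day there is no replicate check, the 3 treated libraries of a day share their control, and the 95% intervals (exact Clopper-Pearson) cover counting error only. A gene was counted as higher or lower when it differed at least 2-fold, and the same share is given for every gene that had 10 or more reads in the pair of libraries.

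On day 3 most of the 10 genes were near the control in d-SMG, 9 of them were at least 2-fold lower in s-GAG, and 4 were lower in Alg. In d-SMG, 2 genes were at least 2-fold higher, *Pax7* (2.08-fold) and *Ncam1* (2.004-fold), both at the edge of the rule, and 0 were lower, against 9.88% and 14.0% of all genes. This tally depended on the scaling, since it was 0 higher and 4 lower with library size only and 0 higher and 2 lower with FPKM. *Myf6* followed at 0.90 on the log2 scale (0.84 to 0.97), while *Actc1* was lower by 0.90 (log2 ratio of -0.90). In s-GAG, 0 were higher and 9 lower, against 14.2% and 11.6% of all genes, and the tenth, *Pax7*, had a log2 ratio of -0.82 (-1.84 to 0.12). *Myog* was 15.5-fold lower in s-GAG, with a log2 ratio of -3.95 (-4.13 to -3.78), *Mymk* 9.07-fold, *Myf6* 6.73-fold, *Myod1* 6.23-fold, *Actc1* 5.44-fold, and *Chrna1* 4.40-fold lower. In Alg, 0 were higher and 4 lower, against 11.4% and 8.79% of all genes, and these were *Actc1* (4.21-fold), *Megf10* (3.44-fold), *Mymk* (2.66-fold), and *Myod1* (2.37-fold).

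On day 7 the genes went in both directions in s-GAG and Alg, and 9 of the 10 were below the control in d-SMG. In d-SMG, 0 genes were higher and 4 lower, against 7.50% and 5.74% of all genes. They were *Actc1* (3.01-fold), *Megf10* (5.95-fold), *Myf5*, and *Pax7*, the last with a log2 ratio of -4.50 whose interval ran from -9.89 to -1.82, and the interval of *Myf5* (-3.28 to 0.38) included 0. In s-GAG, 4 were higher and 3 lower, against 12.9% and 12.5% of all genes. The higher genes were *Myf5* (3.42-fold), *Myf6* (3.22-fold), *Chrna1* (2.18-fold), and *Myog* (2.18-fold), and the lower ones *Megf10* (7.58-fold), *Ncam1* (2.58-fold), and *Pax7* (2.13-fold). In Alg, 3 were higher and 3 lower, against 12.3% and 12.1% of all genes. *Myod1* was 5.21-fold, *Myf6* 2.66-fold, and *Myog* 2.01-fold higher, and *Megf10* was 9.54-fold, *Actc1* 3.56-fold, and *Ncam1* 2.89-fold lower. *Megf10*, *Ncam1*, and *Actc1* were below the control in all 3 treated libraries of day 7, whereas *Myog* and *Myf6* were above it in s-GAG and Alg and below it in d-SMG (log2 ratios of -0.23 and -0.49). Of the other satellite cell and new fiber genes given further on, 0 were at least 2-fold lower in s-GAG or Alg on that day.

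On day 14 all 10 genes were below the control in each treated library. In d-SMG, 0 were at least 2-fold higher and 8 lower, against 12.7% and 16.1% of all genes, and the other two were *Mymk* with a log2 ratio of -0.32 (-0.78 to 0.14) and *Megf10* with -0.86 (-1.70 to -0.08). In s-GAG, 0 were higher and 10 lower, against 26.6% and 31.2% of all genes. In Alg, 0 were higher and 10 lower, against 9.51% and 11.8% of all genes. *Myod1* was 25.3-fold lower in d-SMG, 2.88-fold in s-GAG, and 23.3-fold in Alg. *Chrna1* was 3.82-fold lower in d-SMG, 16.1-fold in s-GAG, and 36.2-fold in Alg. *Actc1* was 4.57-fold, 27.8-fold, and 6.35-fold lower, and *Myog* 8.96-fold, 16.4-fold, and 9.74-fold lower in the same order. For *Myf5*, with 2 or 3 reads in each treated library, the log2 ratios were -3.05 (-5.40 to -1.37), -3.58 (-6.68 to -1.61), and -3.62 (-6.73 to -1.65). The 3 comparisons rest on 1 control library, and that library was the highest of its day for every one of the 10 genes.

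**Figure D2:**
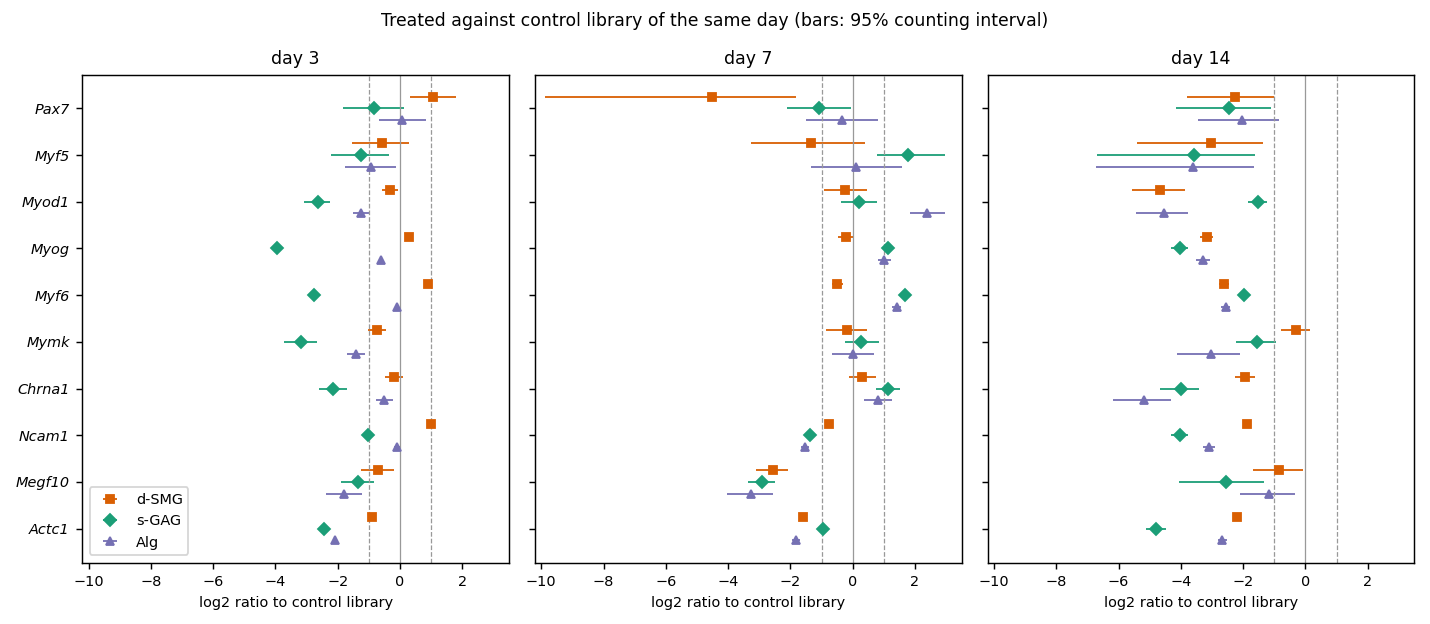
Log2 ratio of each treated library to the control library of the same day, with exact 95% counting intervals. Dashed lines mark 2-fold, and on day 14 all 30 points lie left of 0.

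The s-GAG library of day 14 stood apart from the others, since its ratios to the control fell off with the length of the gene. Over 5 groups of genes from the shortest to the longest, with about equal numbers in each, the median log2 ratio went from 1.24 to -1.23 in this library, a span of 2.47, and the spans of the other 8 comparisons were between 0.248 and 0.804 in size. The lengths of the 10 genes, as the 2 tables imply them, ran from 1388 bases for *Myf6* to 10400 for *Ncam1*. Against the median of the 500 genes nearest in length, a comparison added after this trend was seen, all 10 genes were still at least 2-fold lower in s-GAG on day 14, with log2 differences from -1.41 for *Megf10* to -5.73 for *Actc1*. The short genes were further below genes of their own length than below the control as such, with *Myog* at -4.97 against a log2 ratio of -4.04 and *Myf6* at -3.11 against -1.98, and the longest, *Ncam1*, less far, at -2.81 against -4.04. In the other comparisons this centring changed each count by at most 1 gene. In d-SMG on day 3 the 1 higher gene was then *Myf6*, in place of *Pax7* and *Ncam1*. In Alg on day 7 the higher genes went from 3 to 2, as *Myog* fell to 0.83, and in s-GAG on day 7 they went from 4 to 3, with *Myog* at 0.97, while *Actc1* was added to the lower ones at -1.11. In s-GAG on day 3 *Myf5* (-0.96) was no longer among the lower genes.

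**Figure D3:**
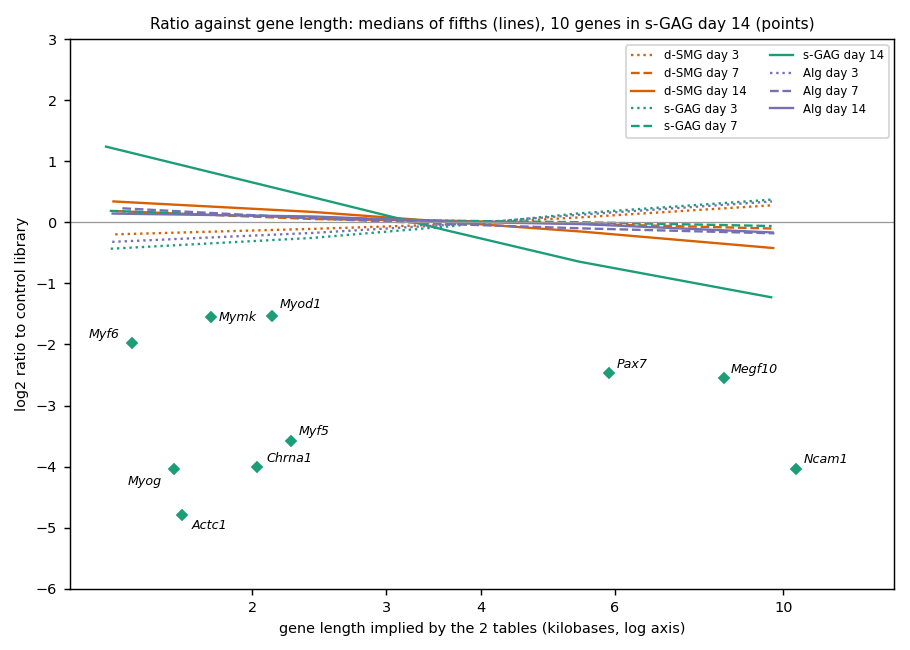
Median log2 ratio to the control of the same day in 5 groups of gene length (lines, length on a log axis) for the 9 comparisons, and the 10 genes in s-GAG on day 14 (diamonds). The s-GAG line of day 14 runs from 1.24 to -1.23, and all 10 diamonds lie below it.

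The levels were then read against the reads on mature muscle genes in the same library, as reads per 1000000 reads on the 23 mature fiber genes. Against control the summed mature fiber reads differed by a log2 ratio of 1.60, -3.40, and -3.02 in d-SMG on day 3, 7, and 14, by -0.89, -0.40, and 0.86 in s-GAG, and by -0.90, 1.20, and -2.43 in Alg. This divisor moves every gene of a library by the same amount, so the 10 genes are given beside all genes on the same measure. The gap between the median of the 10 genes and that of all genes is therefore the same as without the divisor. In d-SMG on day 3 all 10 genes were below the control relative to mature fiber reads, with a median log2 difference of -1.85, where that of all genes was -1.59. At least 2-fold lower were 7 of the 10 and 80.6% of all genes, and 0 of the 10 and 1.25% were higher. In d-SMG on day 7, the library with the lowest share of mature fiber reads, 9 of 10 were above the control, with a median of 2.78, which was less than the 3.42 of all genes. At least 2-fold higher were 8 of the 10 and 98.6% of all genes, and 1 of the 10, *Pax7*, and 0.167% were lower. *Chrna1* was 13-fold above (log2 3.70, 3.27 to 4.14) and *Mymk* 9.20-fold above, and these values are thus near that of a typical gene.

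On day 14 the medians of the 10 genes were below those of all genes in each treated library, as they were without this divisor. In d-SMG the median difference relative to mature fiber reads was 0.79 against 3.01 for all genes, with 4 of the 10 at least 2-fold higher and 1 lower, against 94.7% and 0.695% of all genes. *Mymk* was 6.51-fold and *Megf10* 4.45-fold above the control and *Myod1* 3.12-fold below. In Alg it was -0.62 against 2.44, with 1 higher, *Megf10* (2.39-fold), and 3 lower, against 92.6% and 0.864%, and *Chrna1* was 6.70-fold and *Myod1* 4.31-fold below. In s-GAG all 10 genes were at least 2-fold below and 0 above, against 49.2% and 12.4% of all genes, with a median of -3.93 against -0.96. *Actc1* was 50.5-fold, *Myog* 29.9-fold, *Ncam1* 29.9-fold, and *Chrna1* 29.3-fold below. The s-GAG library of day 14 held more mature fiber reads than its control and fewer reads on every 1 of the 10 genes, with the length trend above as a limit on the sum over the 23 genes.

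In s-GAG on day 3 the median was -1.40 against 0.85 for all genes, with 0 of the 10 at least 2-fold higher and 6 lower, against 42.8% and 2.9% of all genes. In Alg on day 3 it was 0.13 against 0.89, with 0 higher and 1 lower, against 43.4% and 2.65%. On day 7 the medians lay close to those of all genes. They were 0.63 against 0.44 in s-GAG, with 4 higher and 1 lower against 20.8% and 8.18% of all genes, and -1.14 against -1.21 in Alg, with 1 higher and 6 lower against 2.22% and 62.1%.

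**Figure D4:**
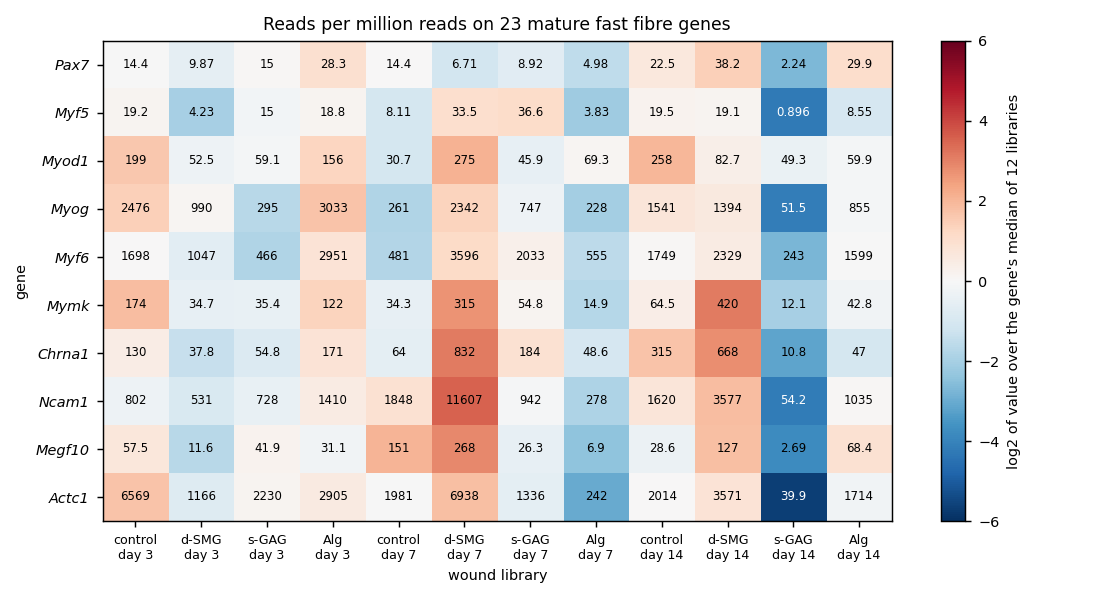
Reads on each gene per 1000000 reads on 23 mature fast fiber genes in the 12 libraries, printed in the cells, with color for the log2 of the value over the gene's median. The s-GAG column of day 14 is the lowest of the 12 for 9 of the genes, and the d-SMG column of day 7 is the highest for 6.

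The levels were also set against the mature fiber reads over the 12 libraries. On log2 CPM, Pearson's r was 0.79 for *Myod1* (permutation test, two-sided, 100000 resamples, p adjusted over the 10 genes of 0.0179) and 0.72 for *Pax7* (adjusted permutation p of 0.0367), and Spearman's rho was 0.76 and 0.55. *Myf6* had r of 0.69 (adjusted permutation p of 0.0505) and rho of 0.64. The other 7 genes had r between 0.17 for *Megf10* and 0.53 for *Myf5*, with adjusted permutation p-values of 0.198 to 0.601. With rho, 0 genes passed, and the smallest adjusted permutation p was 0.0625, for *Myod1*. Without the 2 libraries farthest from the median of the mature fiber reads, d-SMG on day 7 and 14, r was 0.74 for *Myod1* and 0.45 for *Pax7*, and 0 genes passed after adjustment, so the relation of *Pax7* rests on those libraries. Within day 3, 7, and 14, each with 4 libraries and no test, r was 0.66, 0.72, and 0.89 for *Myod1*, 0.88, 0.94, and 0.31 for *Pax7*, and 0.88, -0.27, and -0.06 for *Ncam1*.

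**Figure D5:**
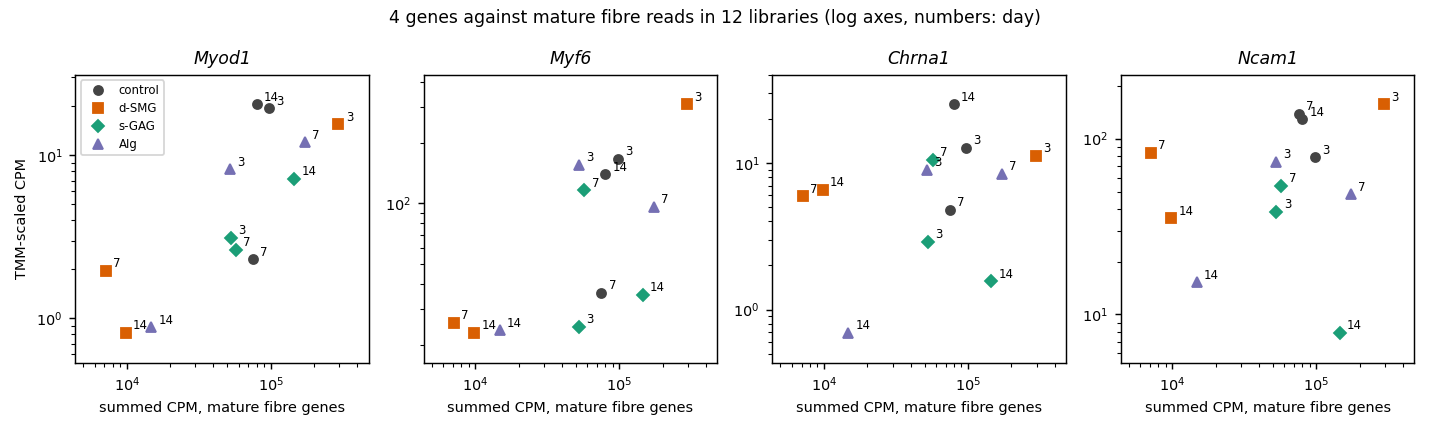
TMM-scaled CPM of 4 genes against the summed CPM of 23 mature fiber genes in the 12 libraries (log axes, numbers give the day). *Myod1* has r of 0.79 and *Ncam1* r of 0.19, and the s-GAG point of day 14 lies low in *Chrna1* and *Ncam1* despite 144978 CPM of mature fiber genes.

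Between the genes themselves, r over the 12 libraries ran from 0.18 (*Myod1* and *Megf10*) to 0.93 (*Myog* and *Myf6*), with a median of 0.69 over the 45 pairs. These points share the depth and composition of each library and are given as a description. *Ncam1*, *Megf10*, and *Actc1* had r of 0.80 to 0.83 with each other. Among 14125 genes, the 3 with the most similar pattern to *Myog* were *Pnma1* (r of 0.97), *Sqstm1* (0.97), and *Mustn1* (0.96), and *Myf6* had the same 3, with r of 0.98 for *Sqstm1*. For *Chrna1* they were the receptor subunits *Chrnd* (0.94) and *Chrng* (0.91) and the fusion gene *Mymx* (0.88). *Actc1* was nearest to *Gabbr2* (0.94), *Mcoln1* (0.93), and *Ankrd1* (0.93), *Myod1* to *Rpusd3* (0.96), *Unc45b* (0.94), and *Dmwd* (0.94), and *Ncam1* to *Draxin* (0.94), *Ssh1* (0.93), and *Sema3c* (0.92). For *Pax7* they were *Arpp21* (0.93), *Adprhl1* (0.93), and *Sel1l3* (0.91), for *Myf5* *Gdf5* (0.91), *Arhgap10* (0.91), and *Ip6k3* (0.90), and for *Mymk* *Chrd* (0.94), *Mrrf* (0.92), and *Fmod* (0.90).

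Other genes of the same processes were set beside the 10. Of 14 further genes of the receptor, the end plate, and the denervated fiber, 12, 10, and 11 were at least 2-fold lower than the control on day 14 in d-SMG, s-GAG, and Alg, with median log2 ratios of -1.88, -2.07, and -2.14, and 0 were higher. On day 3 the same list had 7 genes higher and 0 lower in d-SMG, 0 and 10 in s-GAG, and 2 and 1 in Alg, and on day 7 it had 1 and 5, 7 and 0, and 4 and 0. The ubiquitin ligase gene *Trim63* (MuRF1), active in muscle wasting, had 784 reads in s-GAG against 15313 in control on day 3 (log2 ratio of -3.87) and 45754 against 1286 on day 7 (log2 ratio of 3.74). On day 14 its log2 ratio in s-GAG was -0.96, short of 2-fold. The second such ligase gene, *Fbxo32*, had log2 ratios of -1.59, 2.26, and -3.53 in s-GAG on day 3, 7, and 14, and the stress gene *Gadd45a* -1.75, 1.35, and -1.95. The direction in s-GAG was thus low on day 3, high on day 7, and low on day 14 in these genes as in *Myog*, *Myf6*, and *Chrna1*. Of the 10 genes, 6 were above the control in s-GAG on day 7. The other 4, *Pax7*, *Ncam1*, *Megf10*, and *Actc1*, were below it (log2 ratios of -1.09, -1.37, -2.92, and -0.96).

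Of 8 genes of fusion, embryonic contraction, and fiber repair, 3 were higher in d-SMG on day 3 and 6 lower in s-GAG, and on day 14 5, 6, and 6 were lower in d-SMG, s-GAG, and Alg. The embryonic myosin gene *Myh3* went against the 10 genes in s-GAG on day 3, with 23329 reads against 17584 (log2 ratio of 0.82), and the perinatal myosin gene *Myh8*, named after its values were seen, was the 1 gene of this list at least 2-fold higher there, with 15483 reads against 2405 (log2 ratio of 3.10). The embryonic troponin *Tnnt2* (-1.48) and *Ankrd1* (-1.82), a gene of stretched and injured fibers, were lower. On day 7 this list had 0 genes higher and 4 lower in d-SMG, 2 and 0 in s-GAG, where 7 of the 8 were above the control, and 2 and 0 in Alg. In d-SMG on day 14 *Myh3* had a log2 ratio of -0.40, against -4.18 in s-GAG and -3.94 in Alg. Of 9 further satellite cell genes, 8 had enough reads on day 14, and 4, 3, and 4 of them were lower, with medians of -0.72, -0.34, and -0.80. On day 7 the satellite cell list had 0 higher and 2 lower in d-SMG, 2 and 0 in s-GAG, and 3 and 0 in Alg, with median log2 ratios of -0.23, 0.56, and 0.75, whereas *Megf10* was lower in all 3 libraries. The 3 with the most reads, *Sdc4*, *Itga7*, and *Met*, which other cells of skin also make, had log2 ratios on day 14 of 1.31, -1.38, and 0.13 in d-SMG.

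Treatments were also compared over the 3 days, with the days as the replicates, by edgeR's quasi-likelihood test with day and treatment as terms and Benjamini-Hochberg adjustment over 16110 genes. None of these 16110 genes passed an FDR of 0.05 in any of the 9 comparisons (0.0% in each), and 0 of the 10 genes passed. Without the low-count filter (25349 genes), 1 gene passed in s-GAG and 128 in the d-SMG interaction described below. Of the 10 genes, 0 passed in either. With 1 library left out, genes passed in s-GAG alone, 54 without d-SMG on day 3 and 1 without Alg on day 7, and 0 of them were among the 10. All 10 genes had a negative log2 fold change in d-SMG, s-GAG, and Alg, with medians of -1.23, -1.72, and -1.56, where the medians over all genes were 0.00, -0.03, and -0.03. This was not particular to the 10 genes. All 6 fibroblast markers were also negative in each treatment, with medians of -0.67, -0.93, and -0.71. Of the 14 further denervation genes, 14, 13, and 12 were negative. Of the 23 mature fiber genes, 7, 15, and 10 were positive, and of 6 keratinocyte markers, 4 were positive in each treatment. At an unadjusted p under 0.05 there were 2, 3, and 3 of the 10 genes in d-SMG, s-GAG, and Alg, and 211 (1.31%), 1473 (9.14%), and 502 (3.12%) of all genes. *Actc1* had log2 fold changes of -1.59 (SE 0.634), -2.47 (SE 0.678), and -2.28 (SE 0.645), with adjusted p-values of 1, 0.435, and 1 by edgeR. For *Megf10* they were -1.46 (SE 0.514), -2.27 (SE 0.524), and -2.13 (SE 0.530), and for *Ncam1* -0.78 (SE 0.611), -2.30 (SE 0.637), and -1.80 (SE 0.625). DESeq2 called *Ncam1*, *Megf10*, and *Actc1* lower in s-GAG (adjusted p of 0.0166, 0.00652, and 0.00899 by DESeq2) and *Megf10* lower in Alg (0.0279), and 9, 288, and 88 of all genes in d-SMG, s-GAG, and Alg. Without the control library of day 14 the medians were -0.37, -0.69, and -0.43 and 6, 7, and 7 of the 10 genes were negative, without d-SMG on day 3 the median in d-SMG was -2.02, and without Alg on day 14 that in Alg was -0.93.

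Over the 4 treatments, day 14 was compared with day 3 in the same model. All 10 genes had negative log2 fold changes, with a median of -1.55. Of all 16110 genes, 8321 were negative, with a median of -0.02. Negative were also 22 of 23 mature fiber genes (median of -1.53) and 8 of 8 new fiber genes (-1.65). So were 12 of 14 denervation genes (-1.11) and 7 of 8 satellite cell genes (-0.56). The fall was thus not particular to the 10 genes. Among the 10, *Actc1* had the largest change, -2.86 (SE 0.578, adjusted p of 0.880 by edgeR). It was followed by *Myog* with -2.70 (SE 1.01) and *Myf6* with -1.79 (SE 0.953). Of the 10 genes, 5 were at an unadjusted p under 0.05, against 792 (4.92%) of all genes, a number that ran from 2 to 7 of the 10 with 1 library left out, and DESeq2 called *Actc1* (adjusted p of 0.000468 by DESeq2) among 39 genes. Day 7 against day 3 had 9 of the 10 genes negative, with a median of -1.21. This median was -0.16 without d-SMG on day 3, -0.64 without d-SMG on day 7, and -0.65 without the control of day 7. Of all 16110 genes, 8354 were negative, with a median of -0.02. Negative were also 22 of 23 mature fiber genes (median of -0.94), 7 of 8 new fiber genes (-0.99), and 13 of 14 denervation genes (-0.92). Day 14 against day 7 had 8 of the 10 genes negative, with a median of -0.75. The direction rested on 1 library, since without s-GAG on day 7 only 4 were negative and the median was 0.08. It was -0.31 without Alg on day 14, -1.19 without d-SMG on day 7, and -1.40 and -1.48 without the control of day 7 and of day 14. Of all genes, 8082 were negative, with a median of -0.001. Of the mature fiber genes 19 of 23 were negative (median of -0.50), and of the denervation genes 9 of 14 (-0.24). At an unadjusted p under 0.05 by edgeR there were 1 and 2 of the 10 genes, against 291 (1.81%) and 490 (3.04%) of all genes. DESeq2 called 0 of the 10 genes in these comparisons, and 0 and 7 of all genes.

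Whether the difference from the control on day 3 differed from that on the later days was tested with an interaction term. In d-SMG, 9 of the 10 genes had a positive term, that is, they stood higher relative to the control on day 3 than later. The median was 2.27. Without the control of day 14 it was -0.03 with 5 of 10 negative, so this direction rested on that library. Of all 16110 genes, 7558 had a positive term, with a median of -0.07. Positive were also 23 of 23 mature fiber genes (median of 5.23) and 8 of 8 new fiber genes (2.39). So were 13 of 14 denervation genes (2.36) and 5 of 8 satellite cell genes (1.51). The direction was thus not particular to the 10 genes. Among the 10 genes, the largest term was that of *Pax7* at 3.88 (SE 1.57, adjusted p of 0.654 by edgeR). In s-GAG 4 of the 10 terms were positive and the median was -0.40, and in Alg 8 were positive and the median was 0.93. Of all genes, 8288 in s-GAG and 8019 in Alg had a positive term, with medians of 0.05 and -0.004. Leaving out 1 library turned the sign of the median of the 10 genes in both. The median in s-GAG was 1.35 without s-GAG on day 7, 0.72 without the control of day 7, and -2.80 without the control of day 14, and that in Alg was -0.84 with 7 of 10 negative without the control of day 14 and otherwise 0.36 (without Alg on day 14) to 1.90 (without Alg on day 7). By edgeR and by DESeq2, 0 of the 10 genes passed in these comparisons, in which DESeq2 called 475, 37, and 2 of all genes, and 1, 0, and 0 of the 10 were at an unadjusted p under 0.05 by edgeR, against 1162 (7.21%), 625 (3.88%), and 204 (1.27%) of all genes. The difference between day 3 and the later days was therefore not shown for any of the 10 genes.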

How the data were processed

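The authors deposited unnormalized read counts for 25620 genes and FPKM values for 25524 genes. TopHat2 and edgeR are named per the labels, and the build, the annotation, and the counting tool are not given in the sources used here. The libraries were stranded, rRNA-depleted, and read as 150-base pairs. In each table, 1 column matched no described sample and was not used. The members and the gene lists were chosen with earlier results of these data known. Named genes were the 10 members, the 3 genes with the most reads in each muscle list, and the 3 nearest genes of each member, which for *Megf10* are not reported here. *Chrnd*, *Chrng*, *Chrne*, and *Myh8* are named outside this rule where single values are given.

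Counts were analyzed with edgeR 4.0.16 in R 4.3.3 (TMM, filterByExpr, quasi-likelihood test, FDR of 0.05) and with DESeq2 1.42.0. The paper divided the diabetic rats into treatment groups and euthanized rats after tissue was collected for histology. Whether a library pools animals is not stated, so p-values measure only the spread between these libraries. Pairs of libraries were compared without a test, because no dispersion is stated for 1 library per group. Correlations used log2 CPM with a prior count of 2. Lengths were implied by the ratio of counts to FPKM. Alternatives were RLE size factors, library size, other filters and pseudocounts, FPKM, a 3-fold rule, no day term, each library left out, and, added later, centring by gene length. The fit was tested on counts simulated for 16110 genes with 200 changed by 3 on the log2 scale in d-SMG against control over days, of which it recovered 100% at a dispersion of 0.05 (8 false calls) and 72% at 0.3 (4 false calls).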

Additional observations from a re-analysis of the deposited data

Results flagged for a closer look

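For each gene and day, the 4 libraries were searched for 1 value far from the other three (Dixon's criterion at 95%). Of 30 groups, 3 passed, and chance alone passes about 1 in 20. *Pax7* in the control of day 14 was 1.79 CPM, against 0.325 to 0.441 in the treated libraries. *Myf5* in the same library was 1.55 CPM, against 0.126 to 0.188. *Myod1* in Alg on day 7 was 12 CPM, against 1.96 to 2.62. The first pair rest on 37 and 32 reads, and *Myod1* rests on 181.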

How the results depend on the processing

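RLE size factors, other filters, no day term, and leaving out any of the 12 libraries changed no count of members called (0 in every such fit). An interaction could not be fitted without the day 3 library of its treatment or of the control. An unadjusted p under 0.05 gave 2, 3, and 3 members in d-SMG, s-GAG, and Alg, 1, 5, and 2 for day 7 against 3, day 14 against 3, and day 14 against 7, and 1 for the d-SMG interaction, and DESeq2 gave 3 in s-GAG, 1 in Alg, and 1 for day 14 against 3. In d-SMG on day 3, members at least 2-fold higher numbered 0 with library size only, 0 with FPKM and a pseudocount of 1 or 0.1, 0 with a 3-fold rule, and 1 with centring by length, and lower ones numbered 4 with library size only and 2 with either FPKM setting. With FPKM and a pseudocount of 1, or with a 3-fold rule, Alg on day 3 had 2 lower and s-GAG on day 7 had 2 higher and 1 lower. FPKM with a pseudocount of 1 left 1 lower in d-SMG on day 7, and the 3-fold rule left 1 higher in Alg on day 7. The pseudocount shrinks the ratios of rare genes by construction. On day 14 no alternative moved the counts by over 1.5 times. The relation to mature fiber reads passed for 0 members without the 2 farthest libraries. Depth limits *Pax7* and *Myf5*, which have 1 to 82 reads per library.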

Other observations

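The receptor of young and denervated fibers holds the gamma subunit (*Chrng*), which the epsilon subunit (*Chrne*) replaces at the mature end plate. This pair was chosen after its values were seen. Of the reads on the 2 genes, *Chrng* took 76.5% (exact interval 68.9 to 82.9), 26.7% (12.3 to 45.9), and 65.2% (58.5 to 71.4) in control on day 3, 7, and 14, respectively. In d-SMG the share was 50.5%, 55.3%, and 60.4%. In s-GAG it was 31.6%, 44.4%, and 5.56%, the last from 2 of 36 reads (0.680 to 18.7). In Alg it was 56.4%, 23.4%, and 25.0%, the last from 1 of 4 reads. These shares are of reads and are not scaled by gene length. Per gene length, the control of day 14 held 3.54 FPKM of *Chrng* and 0.58 of *Chrne*, and s-GAG on day 14 held 0.05 and 0.27. The values were 0.27 and 0.23 in control on day 7, 0.35 and 0.35 in Alg on day 7, and 0.57 and 0.38 in s-GAG on day 3. On this scale s-GAG on day 14 was the only library with less *Chrng* than *Chrne*. The part of the length trend of the s-GAG library of day 14 in its share of *Chrng* was not tested.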
